A study of Bos taurus with 14 samples.

Results

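The S100 proteins are small calcium-binding proteins that carry a pair of EF-hand loops and work mostly as dimers inside the cell, where calcium lets them grip partners such as annexins, myosin and p53; some are also released and act on receptors such as AGER and TLR4. S100A10 departs from the family pattern in that its loops no longer bind calcium, and it joins annexin A2 in a complex at the plasma membrane. In epithelia the family is known for roles in membrane organisation, calcium handling and, for S100A8 and S100A12, inflammation. The members described here are the probe sets whose single gene symbol in the platform annotation is S100G, S100A1, S100A2, S100A4, S100A8, S100A10, S100A11, S100A12, S100A13 or S100B. All 10 genes were found, with 12 of the 24016 probe sets of the array (10 of 9155 named genes): S100A1 and S100A10 had 2 probe sets each, the others 1.

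RNA of 14 whole Holstein conceptuses flushed from recipient heifers on Day 15, during trophoblast elongation, was measured with 1 Affymetrix bovine array each. The embryos came from superovulated donor cows inseminated with semen of 1 bull, were collected and graded by morphology on Day 6.5 and were transferred in groups of 2 to 6 per recipient. The groups were 3 conceptuses from Grade 3 embryos (2 male, 1 female), 5 long conceptuses from Grade 1 embryos (1 male, 4 female), 5 short conceptuses from Grade 1 embryos (2 male, 3 female) and 1 male Grade 1 conceptus with no recorded length. Dams and recipients are not identified, so p-values speak only to the spread among the conceptuses at hand. All of these share 1 sire, and some may also share a dam. The labels of Grade 1 short replicate 1 disagree on its length; it was counted as short, as its length characteristic states.

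Values are log2 expression values (RMA) throughout. Array medians lay between 5.62 and 5.716, and any pair of arrays correlated at 0.9838 to 0.9967 across probe sets. The arrays carried the signal of trophoblast: IFNT2, interferon tau, measured 14.37 to 14.61 and the keratin KRT18 14.40 to 14.54 over the 14 conceptuses. TKDP1, PAG2, PTGS2 and TFAP2A measured between 10.10 and 14.57. The remaining ones of the 8 measured trophoblast markers were dimmer: the keratin KRT8 at 5.33 to 6.36, around the array medians, and ELF5 at 6.20 to 7.19. Of 14 measured neutrophil and monocyte markers, 10 stayed below the lowest array median in every conceptus, among them the leukocyte antigen PTPRC at 2.74 to 3.30 and the integrin ITGAM at 2.87 to 3.59. The other 4 reached above it: AIF1 at 7.05 to 9.27, CD68 at 5.64 to 7.27, ITGB2 at 4.12 to 7.29 and CSF1R at 5.38 to 5.77. The glial factor SOX10 measured 3.48 to 3.95. The lowest single value on the arrays, controls included, was 2.235, which is a minimum and not a limit of detection. Since whole conceptuses were measured, fewer cells of a type and less RNA per cell cannot be told apart.

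The first question was which S100 genes differed with length within embryo Grade 1. Long conceptuses carried more S100A11, S100A10 and S100B transcript than short ones: S100A11 rose 4.13 fold, S100A10 rose 1.58 and 2.08 fold by its 2 probe sets and S100B rose 1.33 fold (limma, 5 conceptuses per group). These were 4 of the 12 S100 probe sets past an adjusted p of 0.05, all higher in long conceptuses, and 0 were lower. Over all probe sets, 6.57% passed, 2.7% higher and 3.87% lower in long conceptuses. An unadjusted p under 0.05 was reached by 6 of the 12, and by 22% of all probe sets. The median log2 difference was 0.129 over the S100 probe sets and -0.0201 over all probe sets, and the median size without regard to sign was 0.187 and 0.103.

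S100A11, which binds annexin A1 and takes part in membrane repair and epithelial growth control, differed most. It measured 11.31, 11.65, 9.57, 9.74 and 10.28 in long replicates 1 to 5, against 8.83, 9.40, 8.95, 7.90 and 7.23 in short replicates 1 to 5. Every long conceptus lay above every short one, although the lowest long value exceeded the highest short value by little. Long conceptuses averaged 10.51 ± 0.93 and short ones 8.46 ± 0.88 (SD, n = 5 each), a log2 difference of 2.05 ± 0.48 (SE) with a 95% interval of 1.00 to 3.09 and adjusted p = 0.0321 in limma. Of the 648 probe sets called higher in long conceptuses, 10 rose by more. S100A11 was also among the most variable probe sets: its values spanned 21.4 fold from the lowest to the highest of the 14 conceptuses, and 99.8% of probe sets had a smaller SD over the arrays.

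S100A10, the light chain of the annexin A2 complex and a plasminogen-binding protein of the cell surface, was measured by 2 probe sets that moved together (Pearson r = 0.99 across the 14 arrays, which share processing). Its brighter probe set (S1_at in the plots) measured 13.21, 13.25, 12.77, 12.75 and 12.83 in long replicates 1 to 5, against 12.61, 12.45, 12.46, 12.23 and 11.75 in short replicates 1 to 5. The dimmer one (S2_at) measured 12.07, 12.22, 11.56, 11.38 and 11.63 in long replicates 1 to 5, against 11.10, 11.01, 11.003, 10.47 and 9.99 in short replicates 1 to 5. In both probe sets the groups did not overlap, long replicates 1 and 2 were the highest and short replicate 5 was the lowest. Groups that did not overlap, with long higher, occurred in 3 of the 12 S100 probe sets, and in 2.9% of all probe sets. The brighter probe set differed by 0.66 ± 0.16 (log2, SE; adjusted p = 0.0366 in limma) and the other by 1.06 ± 0.23 (adjusted p = 0.0237). The brighter one had a higher mean than 98.7% of all probe sets and the dimmer one than 95.4%.

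S100B, best known from glia, where it is a cytosolic and secreted calcium sensor, changed less. It measured 5.93, 6.33, 6.08, 6.08 and 5.97 in long replicates 1 to 5, against 5.56, 5.48, 6.02, 5.72 and 5.53 in short replicates 1 to 5. Short replicate 3 reached into the range of the long conceptuses, and the other short values lay below it. The difference of 0.41 ± 0.11 (SE) had adjusted p = 0.0484 in limma, just inside the threshold.

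**Figure D1:**
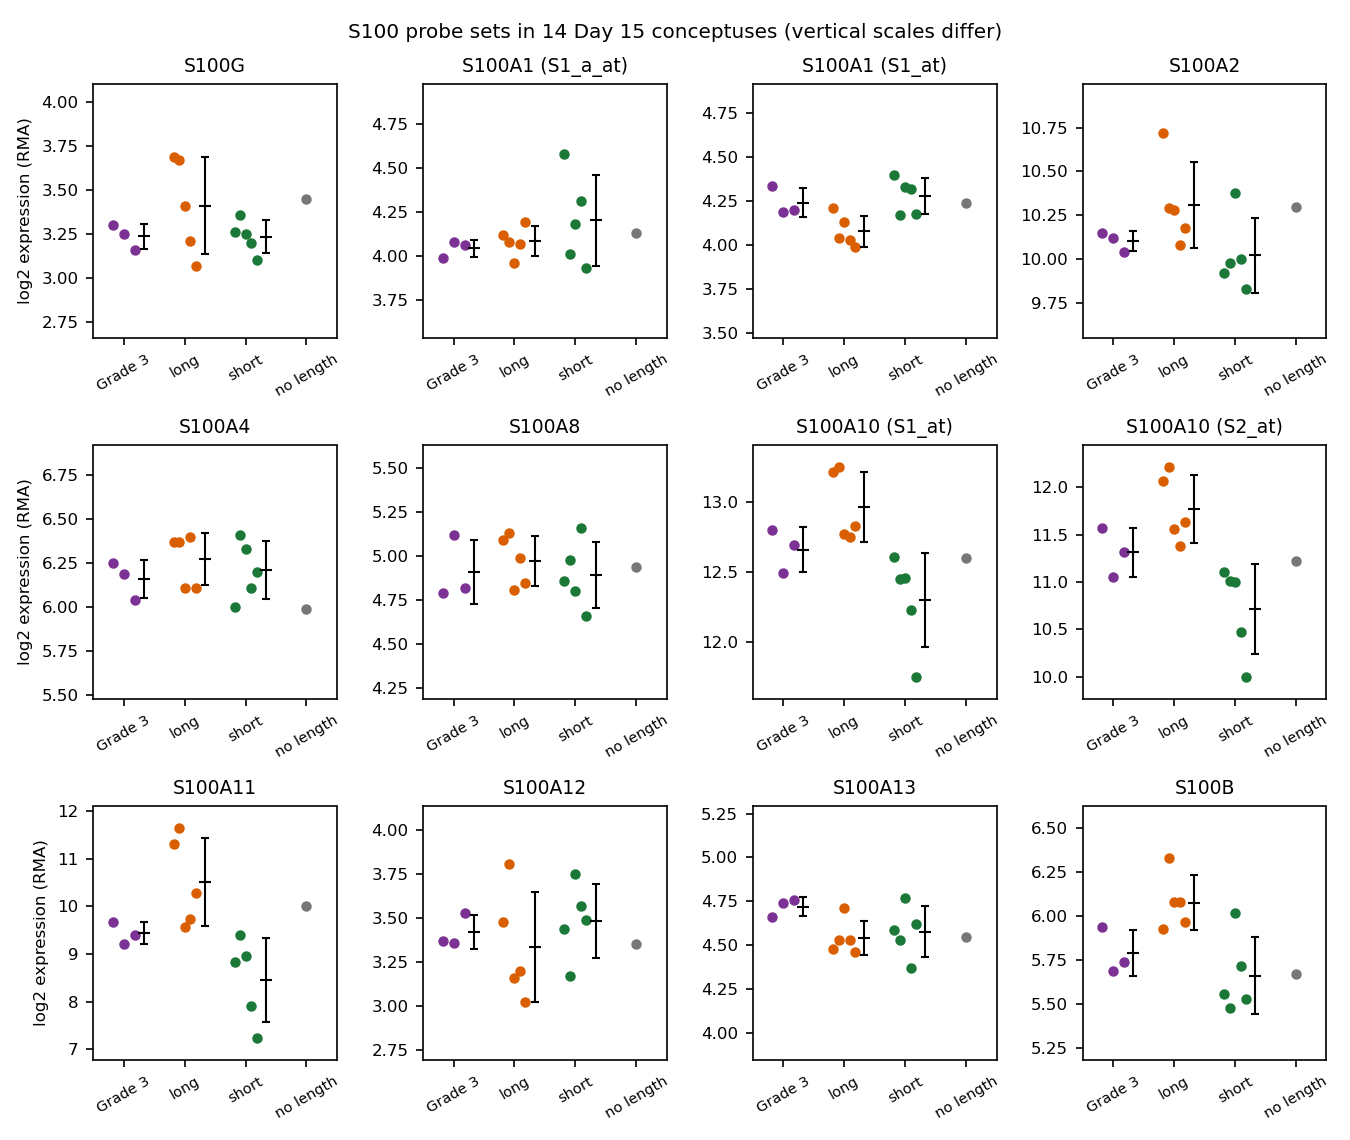
Log2 expression of the 12 S100 probe sets in each conceptus (points), with group mean and SD (bars), for Grade 3, Grade 1 long, Grade 1 short and the Grade 1 conceptus with no length; the vertical scale differs between panels. Long and short conceptuses do not overlap in S100A11 and in either S100A10 probe set, where Grade 3 conceptuses lie between the 2 group means.

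These calls lay close to the threshold. With 1 conceptus left out in turn, the S100A10 probe sets passed in 5 (brighter) and 6 of 10 fits, S100A11 in 5 and S100B in 1; none of the 4 passed without long replicates 1, 2 or 5 or short replicate 4, and without short replicate 5 the dimmer S100A10 probe set alone passed. Their log2 differences stayed positive in all these fits, at 0.52 to 0.74 and 0.88 to 1.16 for S100A10, 1.74 to 2.28 for S100A11 and 0.35 to 0.50 for S100B. With the conceptus of disagreeing labels counted as long, none of the 4 passed: adjusted p was 0.0938 for S100A11, 0.0547 and 0.0521 for S100A10 and 0.257 for S100B, with differences of 1.86, 0.68, 1.04 and 0.30. Left out, it cost the call of S100B alone (adjusted p = 0.0769).

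**Figure D2:**
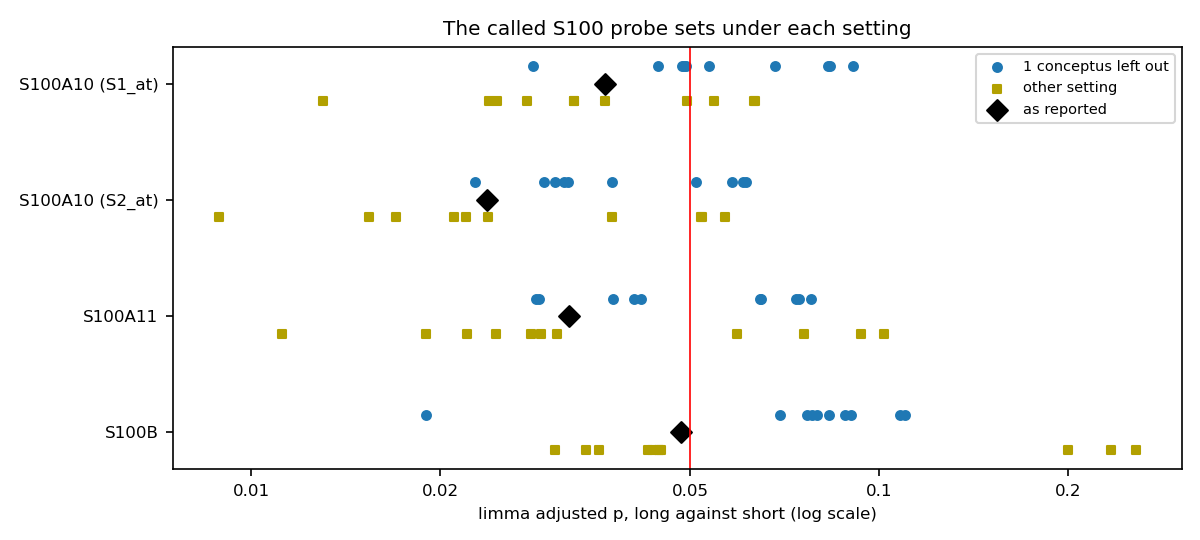
Adjusted p in limma (horizontal, log scale) of the 4 called S100 probe sets for long against short, as reported (diamonds), with 1 conceptus left out (circles) and in the other settings (squares); the line marks 0.05. S100B stays under 0.05 in 1 of 10 fits with a conceptus left out and lies above it in the other 9.

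Sample titles share prefixes whose meaning the labels do not give, and 2 prefixes hold both lengths. In the prefix of long replicates 1 and 2 and short replicate 2, S100A11 averaged 11.48 in long conceptuses and measured 9.40 in the short one. In the prefix of long replicate 3 and short replicates 3 and 4, it measured 9.57 in the long conceptus and averaged 8.43 in short ones. S100A11, S100A10 and S100B were thus higher in long conceptuses inside both prefixes, with differences of 2.08 and 1.14 for S100A11, 0.78 and 0.42 for the brighter and 1.14 and 0.82 for the other S100A10 probe set, and 0.65 and 0.21 for S100B. With the prefix as a fixed block the differences were 1.61, 0.60, 0.98 and 0.43, in the same order, and none passed (adjusted p = 0.0761, 0.0632, 0.0569 and 0.234).

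The other 8 S100 probe sets did not pass for length. S100A2, a nuclear member of stratified epithelia that binds p53, measured 10.72, 10.29, 10.28, 10.08 and 10.18 in long replicates 1 to 5, against 9.92, 9.98, 10.38, 10.002 and 9.83 in short replicates 1 to 5. Here short replicate 3 stood inside the long range, and the difference of 0.29 ± 0.13 (SE) had adjusted p = 0.217. S100A1, a member of heart and muscle that acts on calcium release and uptake, stood at -0.20 ± 0.07 in one probe set (long 4.08 ± 0.09 and short 4.28 ± 0.10, SD, n = 5 each; limma adjusted p = 0.114) and at -0.12 ± 0.11 in the other (adjusted p = 0.592). The 2 correlated at only 0.46 over the arrays.

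S100G, the vitamin D-dependent calbindin of intestine, uterus and placenta, was dim, with a lower mean than all but 13.4% of probe sets. It measured 3.69, 3.67, 3.41, 3.21 and 3.07 in long replicates 1 to 5, against 3.26, 3.36, 3.25, 3.20 and 3.10 in short replicates 1 to 5. Long replicates 1 and 2 stood above all short conceptuses and long replicate 5 below them, and the difference of 0.17 ± 0.12 (SE) had adjusted p = 0.44. The gene is X-linked in the RefSeq table; it measured 3.37 ± 0.18 in 6 males and 3.27 ± 0.19 in 8 females (SD).

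S100A4, which binds non-muscle myosin and marks motile and fibroblast-like cells, averaged 6.27 ± 0.15 in the long group and 6.21 ± 0.17 in the short group (SD, n = 5 each), with a 95% interval of the difference from -0.14 to 0.27. S100A13, which takes part in the export of FGF1, measured 4.54 ± 0.10 and 4.58 ± 0.15, with an interval from -0.21 to 0.15. S100A8, a subunit of calprotectin in neutrophils and monocytes, measured 4.97 ± 0.14 and 4.89 ± 0.19, with an interval from -0.14 to 0.31. S100A12, a neutrophil calgranulin, measured 3.33 ± 0.31 and 3.48 ± 0.21, with an interval from -0.48 to 0.17; in each pair the long conceptuses are given before the short ones. Differences within those intervals were not detectable with 5 arrays per group. Of the 14 measured neutrophil and monocyte markers, 0 passed in limma and 2 had an unadjusted p under 0.05. In a fit of 1 probe set per named gene, 2703 of 9155 genes did. The 2 markers, AIF1 and CD68, stood at 0.82 and -0.55.

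S100 genes outside the member list gave 0 calls in limma for length, at S100A14, S100A16, S100A7, S100A9 and the S100P-binding protein gene S100PBP. S100A14 averaged 12.96 ± 0.10 in the long group and 13.03 ± 0.06 in the short group, and S100A16 measured 10.18 ± 0.11 and 10.14 ± 0.07 (SD, n = 5 each, long before short). The smallest unadjusted p among these 8 probe sets was 0.274, for S100A14.

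**Figure D3:**
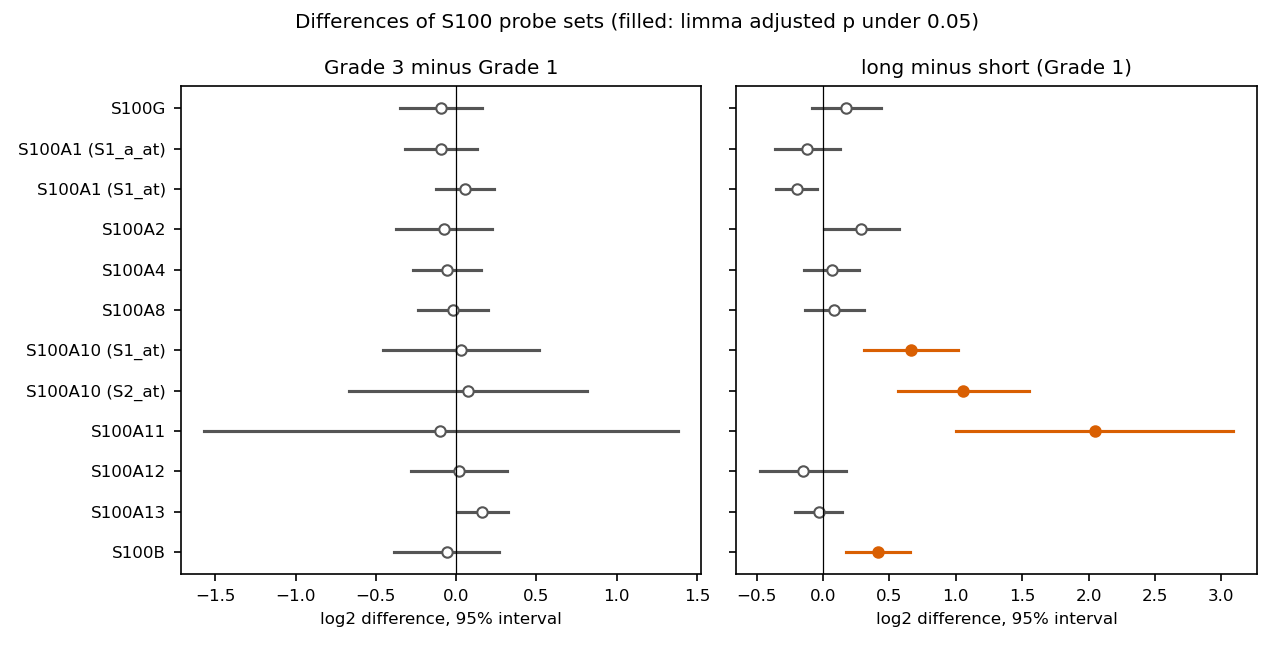
Log2 differences of the 12 S100 probe sets with 95% intervals, for Grade 3 minus Grade 1 (left) and long minus short (right); filled points passed an adjusted p of 0.05 in limma. The widest interval in both panels is that of S100A11, at 1.00 to 3.09 for length.

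The 2 genes that differed most for length lie side by side. In the RefSeq gene order of assembly ARS-UCD2.0, 0 protein-coding genes stand between S100A11 and S100A10, and 27 separate S100A11 from S100A9, the nearest other S100 gene measured. On the far side of S100A10, the adjoining gene THEM4, an acyl-CoA thioesterase, measured 12.02 in long and 11.73 in short conceptuses, with a difference of 0.29 ± 0.10 (SE) and adjusted p = 0.108 in limma. The other protein-coding genes within 5 steps of the pair had no named probe set.

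Binding partners of S100 proteins were taken as a list of 18 genes drawn up here, of which 15 were measured, each by its brightest probe set. Past the threshold, 2 of these rose and 1 fell in long conceptuses, where 9.5% of the 9155 genes taken by their brightest probe set were called. The list's median log2 difference was 0.12, and 7 of the 15 had an unadjusted p under 0.05 in limma. ANXA5, annexin A5, a phosphatidylserine-binding protein of trophoblast membranes, rose by 0.52 ± 0.13 (SE), averaging 11.98 in long and 11.46 in short conceptuses (limma adjusted p = 0.043); its second bright probe set rose by 0.64 (adjusted p = 0.0198), and its 2 dim ones stood at -0.05 and -0.10. ANXA6 rose by 0.23 ± 0.06 (adjusted p = 0.049). CACYBP, the calcyclin-binding protein of a ubiquitin ligase complex, fell by 0.23 on the log2 scale (adjusted p = 0.0444).

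ANXA2, which S100A10 binds, and ANXA1, which S100A11 binds, did not pass. ANXA2, the partner of S100A10, measured 13.07, 12.73, 12.65, 12.53 and 12.71 in long replicates 1 to 5, against 12.76, 12.56, 12.22, 12.40 and 11.97 in short replicates 1 to 5. Short replicates 1 and 2 lay within the long range, and the difference was 0.35 ± 0.14 (SE, limma adjusted p = 0.175). For ANXA1, a partner of S100A11, long conceptuses averaged 12.60 ± 0.50 and short ones 11.77 ± 0.65 (SD, n = 5 each), a difference of 0.83 ± 0.31 (SE, adjusted p = 0.137). MYH10, a non-muscle myosin heavy chain, stood at 0.49 with adjusted p = 0.0516. With 1 conceptus left out, ANXA5, ANXA6 and CACYBP each passed in 1 of 10 fits; in the 11 other settings they passed in 10, 6 and 7.

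Of 15 measured receptors and extracellular partners, 1 rose and 0 fell (median -0.07), and 1 had an unadjusted p under 0.05 in limma. This was ALCAM, an adhesion molecule reported to bind S100B in mouse, which measured 5.45, 5.95, 4.50, 5.58 and 5.54 in long replicates 1 to 5, against 4.58, 4.17, 3.74, 3.79 and 3.53 in short replicates 1 to 5. Short replicate 1 alone exceeded a long conceptus, replicate 3. ALCAM was dim: every conceptus but long replicate 2 lay below the lowest array median of 5.62. The difference of 1.44 ± 0.26 (SE, limma adjusted p = 0.0139) passed in each of the 10 fits that left a conceptus out (adjusted p at most 0.0423). In the 10 other settings ALCAM passed in 9 (limma adjusted p at most 0.0578), with a difference of at least 1.13. TLR4 and AGER, receptors of released S100 proteins, stood at -0.26 and -0.07 (adjusted p = 0.259 and 0.735), with levels of 4.66 and 4.49 in long and 4.92 and 4.55 in short conceptuses.

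Genes of calcium entry, buffering and extrusion gave 0 calls of 15 in limma for length. Of the 15, 2 had an unadjusted p under 0.05, beside 2703 of 9155 genes in a fit of 1 probe set per named gene. The 2 were the store sensor STIM1 at 0.24 and its channel ORAI1 at -0.19 (limma adjusted p = 0.133 and 0.197). Among 20 other small EF-hand proteins, 1 rose and 2 fell (median 0.08), and 7 had an unadjusted p under 0.05 in limma. NCALD, neurocalcin, rose by 0.28 in its brightest probe set at 4.04 against 3.76, and its other 2 probe sets stood at -0.15 and -0.03. CETN3, a centrin of centrosomes, fell by 0.28 and PPP3R1, the regulatory subunit of calcineurin, fell by 0.30 on the log2 scale. With 1 conceptus left out, NCALD passed in 1, CETN3 in 4 and PPP3R1 in 3 of 10 fits. Calls made up 9.5% of the 9155 genes taken by their brightest probe set, beside 3 of 15, 1 of 15, 0 of 15 and 3 of 20 in the 4 lists.

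**Figure D4:**
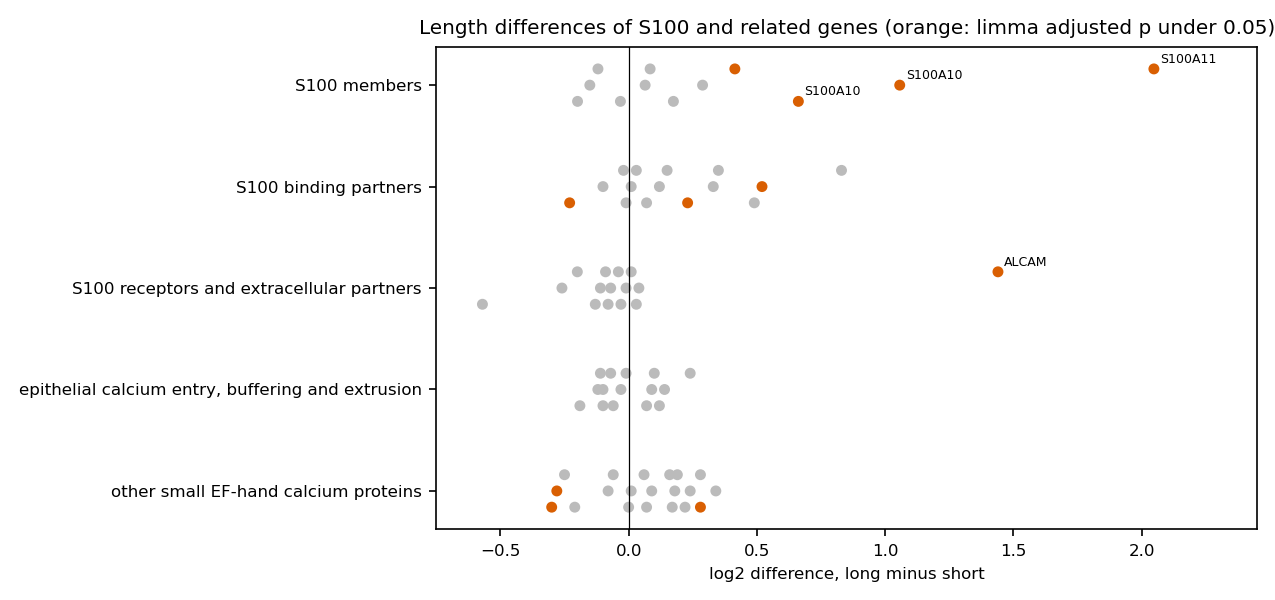
Log2 differences, long minus short, of the 12 S100 probe sets and of the measured genes of 4 related lists, 1 point per probe set or gene (spread vertically for sight only); orange points passed an adjusted p of 0.05 in limma. S100A11 at 2.05 and ALCAM at 1.44 stand farthest right.

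The dimmer S100A10 probe set had the smallest p of the members for length, and among the 9154 other named genes the 5 with the highest Pearson correlation to it over the 14 conceptuses were BMP2, S100A11, CAP1, ANXA5 and CAPN2, at 0.97, 0.96, 0.96, 0.96 and 0.95. They were picked as the highest of many, so no p is given, and the difference between long and short conceptuses enters each value. Taken as deviations from group means, the same correlations were 0.96, 0.93, 0.93, 0.92 and 0.88. BMP2 is a signalling ligand, CAP1 an actin regulator and CAPN2 a calcium-dependent protease; for length they differed by 2.13, 0.50 and 1.02 (log2, limma adjusted p = 0.00902, 0.0218 and 0.0105). The 3 genes with the lowest correlations were ZWILCH, NDUFS3 and DNAJC7, at -0.97, -0.97 and -0.96. ANXA1 and ANXA2 correlated with S100A10 at 0.89 and 0.82, or 0.87 and 0.71 as deviations. S100B correlated at 0.71, or 0.34 as deviations.

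**Figure D5:**
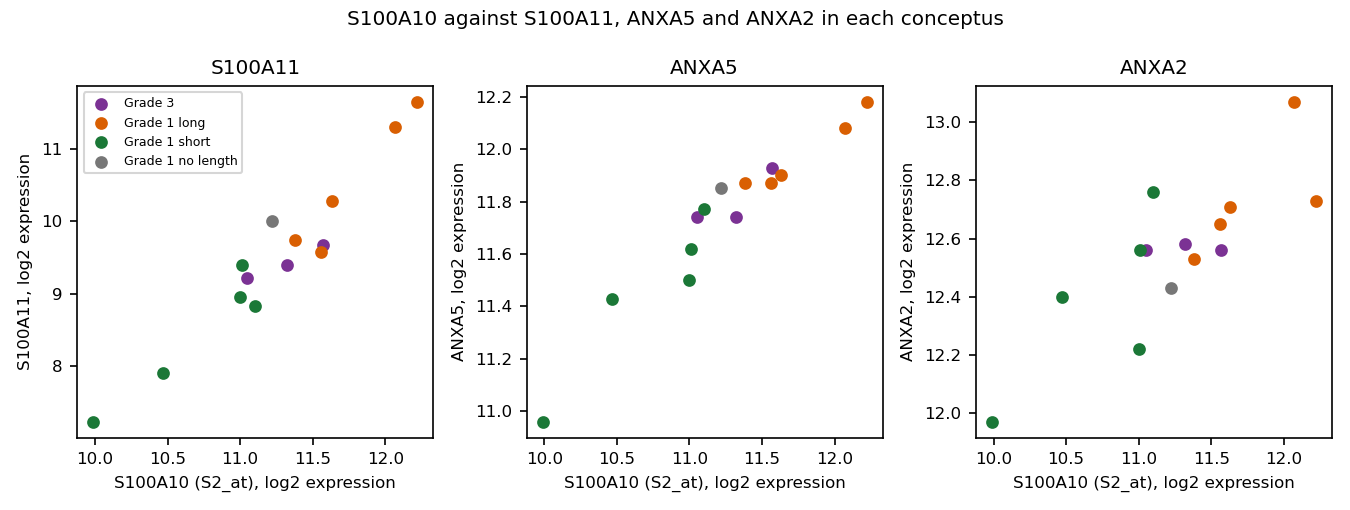
Log2 expression of S100A11, ANXA5 and ANXA2 (vertical) against the dimmer S100A10 probe set (horizontal) in each of the 14 conceptuses, coloured by group. Short replicate 5, at 9.99 for S100A10, is lowest in all 3 panels, and long replicates 1 and 2 are highest for S100A11 and ANXA5.

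Of 57 measured markers in 8 cell type lists, 5 passed for length (8.77%), beside 9.5% of all genes taken by their brightest probe set; 4 lists had 0 calls in limma. Averaged over 8 measured trophoblast markers, the log2 level was 11.79 to 11.87 in long and 11.25 to 11.77 in short conceptuses, where TFAP2A alone passed (0.38). Over 8 hypoblast markers it was 8.35 to 8.56 in long and 8.05 to 8.42 in short conceptuses, with APOA1 (0.59) and RBP4 (1.30) past the threshold. The hypoblast markers did not move together: FN1 and APOE stood at 0.43 and 0.18, and GATA6, AFP, GATA4 and TTR at -0.18, -0.16, -0.11 and -0.11. Their median log2 difference was 0.04. Over 8 fibroblast and mesoderm markers the level was 4.26 to 4.39 and 4.12 to 4.34, with THY1 (0.40) past the threshold. Over 8 endometrial markers it was 4.15 to 4.38 and 4.14 to 4.40, long before short in both lists. The endometrial list had 0 calls in limma and 1 unadjusted p under 0.05. In a fit of 1 probe set per named gene, 2703 of 9155 genes had an unadjusted p under 0.05. Over 3 glial and melanocyte markers the level was 4.10 to 4.27 in long and 4.12 to 4.27 in short conceptuses. The 3 measured epiblast markers averaged 5.56 to 5.99 in long and 5.94 to 6.44 in short conceptuses. DNMT3B, which alone passed, fell by 0.39 on the log2 scale in its brighter probe set, while its other stood at 0.02 (limma adjusted p = 0.965). POU5F1 and SOX2 stood at -0.82 and -0.26 (limma adjusted p = 0.0704 and 0.106). An unadjusted p under 0.05 in limma was reached by 3 of 3 epiblast, 3 of 8 trophoblast and 3 of 8 hypoblast markers. It was reached by 1 of 8 fibroblast and mesoderm and 0 of 3 glial and melanocyte markers. Over the 14 neutrophil and monocyte markers the level was 4.53 to 4.75 in long and 4.51 to 4.80 in short conceptuses, and over 5 erythroid markers 4.19 to 4.35 and 4.24 to 4.34, long before short, with 0 calls in limma and 0 unadjusted p under 0.05 for the erythroid list. The part of cell composition in the S100 differences was not tested.

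The second question was whether the S100 genes differed on Day 15 between conceptuses from Grade 3 and from Grade 1 embryos. In limma 0 of the 12 S100 probe sets passed for grade (3 against 11 conceptuses), and the share over all probe sets was 0%; 1 S100 probe set had an unadjusted p under 0.05, a share that was 5.06% over all probe sets. That was S100A13, which measured 4.66, 4.74 and 4.76 in Grade 3, against a lowest value of 4.37, a median of 4.53 and a highest of 4.77 in Grade 1. The Grade 3 values lay inside the Grade 1 range, and the difference was 0.16 ± 0.07 (SE, adjusted p = 0.981). The median log2 difference was -0.0388 over the S100 probe sets and 0.00239 over all probe sets. The 4 related lists gave 0 calls in limma for grade, with an unadjusted p under 0.05 for 1 of 15 binding partners, 0 of 15 receptors, 0 of 15 calcium handling genes and 2 of 20 EF-hand genes.

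S100A11 measured 9.68, 9.22 and 9.40 in Grade 3, against 7.23 to 11.65 with a median of 9.57 in Grade 1. The dimmer S100A10 probe set measured 11.57, 11.05 and 11.32 in Grade 3, against 9.99 to 12.22 with a median of 11.22 in Grade 1. The Grade 3 conceptuses thus stood in the middle of a wide Grade 1 range. The 95% interval of the grade difference reached from -1.57 to 1.38 for S100A11, from -0.667 to 0.815 for this S100A10 probe set and from -0.39 to 0.27 for S100B, so a grade difference as large as 1 log2 unit in S100A11 was not detectable with 3 Grade 3 conceptuses.

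Set against each length class in a fit of all 14 arrays, Grade 3 conceptuses lay between long and short ones in group mean for 9 of 12 S100 probe sets, as they did for 40.9% of all probe sets. For S100A11 the means were 9.44 in Grade 3, 10.51 in long and 8.46 in short conceptuses. Grade 3 minus long was -1.07 ± 0.51 (SE, limma adjusted p = 0.569) and Grade 3 minus short 0.97 ± 0.51 (adjusted p = 0.526). For the dimmer S100A10 probe set the same differences were -0.46 ± 0.25 and 0.60 ± 0.25 (adjusted p = 0.629 and 0.427), and for S100B -0.29 ± 0.12 and 0.13 ± 0.12 (0.526 and 0.742). In limma 0 S100 probe sets passed in either comparison, as did 0% of all probe sets; 1 S100 probe set in each, S100B against long and the dimmer S100A10 against short, had an unadjusted p under 0.05, a share of 9.06% over all probe sets against long and 10.6% against short. The comparisons share the Grade 3 conceptuses.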

How the data were processed

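The authors deposited log2 values, 1 per probe set and conceptus, which the submitters' processing notes credit to RMA run in Expression Console (versions and the set of arrays normalised together: not given in the sources). RMA corrects background, equalises array distributions and condenses each probe set, which removes shifts common to all genes. Input was 250 ng of total RNA, per the labels' protocols. Of 24128 probe sets, 112 array controls were left out. Gene symbols came from the platform annotation (13292 probe sets with 1 symbol, 86 with several, 10638 with none); all 12 S100 probe sets matched RefSeq by Entrez number, and that table gave gene order only. The number of arrays limits precision: the 95% interval reached 0.198 to each side for length at the median probe set and 0.21 for grade.

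Long was compared with short (5 and 5) and Grade 3 with Grade 1 (3 and 11), each in its own fit, and Grade 3 with each length class in 1 fit of 14 arrays. limma 3.58.1 (lmFit, eBayes; R 4.3.3) was fitted over 24016 probe sets, two-sided, with Benjamini-Hochberg adjustment and a threshold of 0.05, and was tested on simulated data. Members, lists and tests were chosen with earlier results of these data known. All S100 probe sets were named; of the partner lists, each gene stands by its brightest probe set, and those past the threshold or with the 2 smallest p were named, with further genes named after their values were seen (ANXA1, ANXA2, AGER, MYH10). Alternatives covered normalization, dim probe sets, sex, title prefix, the conceptus with disagreeing labels, the variance prior and left-out conceptuses. Sequences were not used here.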

Additional observations from a re-analysis of the deposited data

Results flagged for a closer look

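In 1 of 24 groups tested (12 S100 probe sets in the long and the short conceptuses, 5 each), a single conceptus lay far from the others by Dixon's criterion, which chance alone meets in about 1 in 20 groups. S100A13 measured 4.71 in Grade 1 long replicate 3, against 4.46 to 4.53 in the other long conceptuses.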

How the results depend on the processing

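For long against short, 4 S100 probe sets passed with arrays centred, quantile normalization once more, the brighter probe sets alone, sex as a covariate, the title prefix as a random block and all 14 arrays in 1 fit; 3 passed with a trended robust prior (S100A11 had adjusted p = 0.0594) and 3 of 10 with 1 probe set per gene. In limma 0 passed with the conceptus of disputed length moved to the long group or with the prefix as a fixed block. The same held without the 2 short arrays least like the others, an alternative chosen after seeing the data. In these settings, in that order, 3, 5 and 5 of the 12 S100 probe sets had an unadjusted p under 0.05. Over all 24016 probe sets, 4909, 3914 and 4480 did. Without the 2 short arrays, limma adjusted p was 0.102 for S100A11, 0.0635 and 0.0522 for S100A10 and 0.2 for S100B. Leaving out 1 conceptus gave 0 to 4 S100 calls. The cause was not tested. Over all 24016 probe sets 1577 passed, against 1548 with arrays centred, 1466 with quantile normalization once more and 2403 with sex as a covariate. The count was 1653 with the random block, 1750 with all 14 arrays in 1 fit and 1791 with the trended robust prior. It was 492, 112 and 468 in the settings with 0 S100 calls, and 460 to 1697 with 1 conceptus left out. Among the brighter probe sets alone 2070 of 12008 passed, and with 1 probe set per gene 1206 of 9155. No S100 call turned its direction in these settings. S100 calls for grade and for Grade 3 against long or short stayed at 0 in limma in every setting run. Over all probe sets the grade comparison gave 0 to 2 calls with 1 conceptus left out, Grade 3 against long 0 to 1 and 49 with sex as a covariate, and Grade 3 against short 0 to 4. The labels give no replicate numbers that join conceptuses across groups, so none were used as a block; title prefixes, of which 2 hold both lengths, were fitted as the fixed block above. Signal limits S100G and S100A12, whose means exceeded those of only 13.4% and 15.6% of probe sets. S100A1 (4.12 and 4.20), S100A13 (4.59) and S100A8 (4.93) also averaged below the lowest array median of 5.62.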

Other observations

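The Grade 1 conceptus with no recorded length measured 10.01 for S100A11, inside the range of the long conceptuses, and 12.60 and 11.22 for S100A10, where the brighter probe set lay just below the highest short value and the other above it. It measured 5.67 for S100B, inside the range of the short conceptuses.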
